A study of Mus musculus with 2 samples.

Results

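The epidermal differentiation complex of the mouse is a set of neighbouring gene families on chromosome 3. Members were taken as the protein-coding genes of GENCODE M21 on that chromosome whose symbols start with Sprr, Lce1, Lce3, Lce6 or S100a, together with Ivl, Lor, Crct1, Flg, Flg2, Rptn, Hrnr and Tchh. This gave 58 of 21911 protein-coding genes. They lay in 2 clusters on build mm10: 12 S100a genes at chr3:90511034-90695721, and 46 genes at chr3:92080271-93564643, which hold the other 44 members followed by S100a11 and S100a10. By role the members were 14 S100a genes, 15 Sprr genes, 21 Lce genes, the envelope genes Ivl, Lor and Crct1, and 5 genes for S100-fused proteins (Flg, Flg2, Rptn, Hrnr and Tchh).

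Chromatin accessibility was measured by DNase-seq, in which DNase I cuts DNA where it is accessible, in stomach tissue taken on postnatal day 0 from mice of the B6NCrl strain. There was 1 group of 2 biological replicates with 1 library each, no treatment and no second condition, so no groups could be compared. The labels give both libraries 1 donor identifier and do not say whether the tissue came from separate or pooled animals, so differences between the replicates may be technical. Replicate 1 had 139374 peaks and replicate 2 had 152779 on the chromosomes used, with median deposited signals of 44 and 52. Read numbers were not found in the labels or files, so the depth is unknown and a weak site may have gone uncalled.

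Cornification is the last step of keratinocyte life in stratified squamous epithelium. Involucrin, loricrin and the small proline-rich (Sprr) and late cornified envelope (Lce) proteins are crosslinked by transglutaminases into an insoluble shell, and filaggrin and its S100-fused relatives bind keratin filaments or strengthen that shell. The S100a proteins are small calcium-binding proteins, several of which are made in many cell types. The rodent stomach has a squamous forestomach beside its glandular part, and the labels do not say which part was taken. In such bulk tissue, few cells with an accessible site and weak accessibility in many cells cannot be told apart.

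The sequences that carry the findings are shown first, 5′ to 3′ on the strand of the named gene. The first group holds regions found in both replicates. They are the Sprr1a promoter (chr3:92485916-92486065, minus strand), the Rptn promoter (chr3:93393436-93393605, plus strand), the S100a11 promoter (chr3:93520336-93520485, plus strand), a region at an inner start of S100a3 (chr3:90586996-90587165, plus strand), a region upstream of S100a11 (chr3:93506416-93506565, plus strand) and a region upstream of Ivl (chr3:92579616-92579785, minus strand). In Sprr1a, capitals mark a C/EBP string (TTNCNNAA), a pair of AP-1 strings and the TATA box string. An AP-1 string is spelled TGANTCA. The TATA box string is spelled TATAAA. In Rptn, capitals mark a C/EBP string on the other strand and an ETS string, spelled GGAAGT. In the S100a sequences they mark AP-1 strings. At Ivl they mark an AP-1 string followed directly by a KLF string, which is GGGNGTGG on the other strand.
Sprr1a promoter region: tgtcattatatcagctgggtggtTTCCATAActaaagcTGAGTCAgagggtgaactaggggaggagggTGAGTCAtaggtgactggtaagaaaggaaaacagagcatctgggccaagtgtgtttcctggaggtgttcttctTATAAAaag
Rptn promoter region: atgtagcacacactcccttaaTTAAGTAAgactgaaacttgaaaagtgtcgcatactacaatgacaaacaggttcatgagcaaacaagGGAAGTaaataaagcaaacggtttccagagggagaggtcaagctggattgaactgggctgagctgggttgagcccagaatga
S100a11 promoter region: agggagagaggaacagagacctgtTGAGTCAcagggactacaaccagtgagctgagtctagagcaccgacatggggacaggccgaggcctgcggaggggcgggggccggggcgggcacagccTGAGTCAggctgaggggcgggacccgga
S100a3 inner start region: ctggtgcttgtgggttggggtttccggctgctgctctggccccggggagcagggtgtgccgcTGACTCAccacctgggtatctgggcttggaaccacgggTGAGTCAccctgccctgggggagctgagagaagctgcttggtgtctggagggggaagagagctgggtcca
S100a11 upstream region: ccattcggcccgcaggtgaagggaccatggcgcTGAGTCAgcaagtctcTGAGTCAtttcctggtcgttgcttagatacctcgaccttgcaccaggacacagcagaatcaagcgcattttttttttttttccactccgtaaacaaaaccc
Ivl upstream region: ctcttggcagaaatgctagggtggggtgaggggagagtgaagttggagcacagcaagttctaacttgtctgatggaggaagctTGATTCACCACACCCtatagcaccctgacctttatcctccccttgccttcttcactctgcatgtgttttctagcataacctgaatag

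The second group holds promoters without a shared region, given for contrast with Sprr1a. Each is the 250 bases before the RefSeq start (RefSeq, GRCm38.p6): Sprr1b (chr3:92438780-92439029, minus strand), Sprr2h (chr3:92385435-92385684, plus strand), Lor (chr3:92083143-92083392, minus strand) and Ivl (chr3:92573736-92573985, minus strand). Capitals mark the AP-1 string and TATAAA.
Sprr1b RefSeq promoter: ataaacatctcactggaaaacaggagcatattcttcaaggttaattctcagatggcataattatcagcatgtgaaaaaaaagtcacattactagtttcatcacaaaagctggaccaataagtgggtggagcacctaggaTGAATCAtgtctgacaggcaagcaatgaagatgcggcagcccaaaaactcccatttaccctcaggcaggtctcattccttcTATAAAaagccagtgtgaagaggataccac
Sprr2h RefSeq promoter: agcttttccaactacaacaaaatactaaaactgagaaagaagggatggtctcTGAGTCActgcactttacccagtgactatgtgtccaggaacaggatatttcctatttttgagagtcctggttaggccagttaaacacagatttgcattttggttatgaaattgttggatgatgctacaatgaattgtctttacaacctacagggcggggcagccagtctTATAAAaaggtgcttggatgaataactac
Lor RefSeq promoter: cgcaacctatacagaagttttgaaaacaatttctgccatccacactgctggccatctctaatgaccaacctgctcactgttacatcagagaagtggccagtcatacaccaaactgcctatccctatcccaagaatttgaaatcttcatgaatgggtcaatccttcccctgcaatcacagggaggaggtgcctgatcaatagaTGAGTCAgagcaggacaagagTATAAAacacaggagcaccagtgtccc
Ivl RefSeq promoter: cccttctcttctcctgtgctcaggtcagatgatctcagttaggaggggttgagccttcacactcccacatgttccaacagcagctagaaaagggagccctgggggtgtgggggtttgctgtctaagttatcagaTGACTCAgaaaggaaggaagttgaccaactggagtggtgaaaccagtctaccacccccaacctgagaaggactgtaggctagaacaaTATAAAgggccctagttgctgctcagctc

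The third group holds regions shared by both replicates inside the protein-coding sequence of Lor (chr3:92080936-92081085, minus strand) and Tchh (chr3:93447276-93447485, plus strand). Capitals mark a GC box (GGGCGG) in Lor and a C/EBP string on the other strand in Tchh.
Lor coding exon region: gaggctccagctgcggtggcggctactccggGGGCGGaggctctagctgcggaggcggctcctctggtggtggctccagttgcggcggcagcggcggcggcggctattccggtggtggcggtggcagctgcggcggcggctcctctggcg
Tchh coding exon region: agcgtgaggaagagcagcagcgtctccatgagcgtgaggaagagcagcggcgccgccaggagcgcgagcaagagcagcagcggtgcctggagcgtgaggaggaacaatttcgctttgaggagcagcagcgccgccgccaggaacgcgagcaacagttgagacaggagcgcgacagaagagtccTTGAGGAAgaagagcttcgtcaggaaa

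The complex was split by gene family. A promoter was called open when a shared region, that is peaks of both replicates overlapping by at least 1 bp, touched the 1 kb on either side of any annotated start of the gene. Of the 58 members 14 (24.1%) had an open promoter, against 66.4% of all protein-coding genes. Of the 14 S100a genes 11 were open, and S100a2, S100a8 and S100a9 were not. Of the other 44 members 3 were open, namely Sprr1a, Rptn and Crct1. By family this was 1 of 15 Sprr genes, 0 of 21 Lce genes, 1 of the 3 genes Ivl, Lor and Crct1, and 1 of 5 genes for S100-fused proteins. In replicate 1 alone 13 members had a promoter peak, beside 68.2% of all genes, and in replicate 2 alone 15 did, beside 69.4%. The difference came from Crct1 and Ivl, which had a promoter peak in replicate 2 only. The remaining 43 members had no promoter peak in either replicate. Hotspots, the wider enriched intervals that were deposited beside the peaks, were present at the same 14 promoters in both replicates, beside 67% of all promoters.

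**Figure D1:**
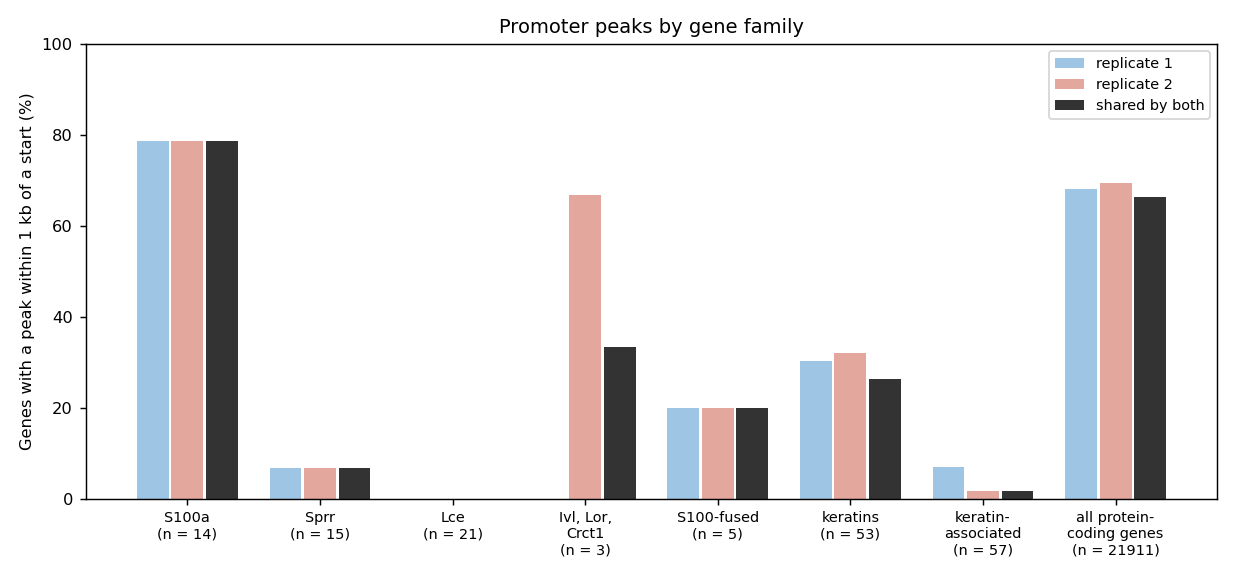
Share of genes with a peak within 1 kb of a start (percent, vertical axis) in replicate 1, replicate 2 and as a region shared by both, for the 5 member families, keratins, keratin-associated genes and all protein-coding genes, with the number of genes under each name. The shared share was 78.6% for S100a genes and 6.67% for Sprr genes, Lce genes had no promoter peak, and all genes stood at 66.4%.

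A low share of open promoters was also found in 2 other sets of tandem genes for structural proteins of epithelium and hair. Keratins had 14 of 53 promoters open (26.4%), and keratin-associated genes, which encode hair matrix proteins, had 1 of 57 (1.75%). The 44 members other than S100a, at 6.82%, lay between them. These are counts over genes that arose by duplication, and the differences between families were not tested. Many keratin-associated promoters hold repeated sequence, as given below, so peaks there can be missed.

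Sprr1a, a small proline-rich envelope precursor, had the strongest promoter region among the members other than S100a. Its proximal region, centred 95.5 bp before the start, had signals of 80 (replicate 1) and 101 (replicate 2), at the 87.7th and 93.4th percentile of all peaks of each replicate. A second region centred 595.5 bp before the start had signals of 38 and 57. The proximal region stood in the upper part of both lists and the distal one near their middle. It holds both AP-1 strings and the TATAAA shown above. Its relative Sprr1b had no promoter peak and no peak in its locus (the gene body extended by 10 kb both ways) in either replicate.

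Rptn encodes repetin, an S100-fused envelope protein. Its promoter region, centred 178.5 bp before the start, had signals of 55 and 60, at the 67.3rd and 61.2nd percentile. The start of the noncoding gene Gm37857 lies at the same region, so the region cannot be given to Rptn alone. Crct1, a cysteine-rich gene next to the Lce3 genes, was open only at the edge of its window. The region, with signals of 49 and 55, lay in its coding exon with the centre 1068.5 bp inside the gene from the nearest start, and only the peak of replicate 2 reached the window. Ivl encodes involucrin, an early scaffold of the envelope. It had a promoter peak in replicate 2 alone, centred 95.5 bp before the start, with a signal of 37 at the 21.2nd percentile. In replicate 1 there was none.

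Among the S100a genes, the partners S100a1 and S100a13 are read in opposite directions from starts 43 bp apart, and they shared 2 regions. The region over both starts had signals of 90 and 100, and the one 485.5 bp inside S100a13 had 81 and 97. S100a14 had a region centred 85.5 bp before its start with signals of 81 and 90, and S100a16 had one with 98 and 107. S100a6, which encodes calcyclin, had a region with signals of 73 and 104. These regions lay above the 80th percentile in both replicates.

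S100a10, the annexin A2 partner, and S100a11 stand apart from the other S100a genes, at the far end of the second cluster. S100a11 had promoter regions with signals of 74 and 95 and, 612.5 bp inside the gene, of 67 and 81. S100a10 had 3 promoter regions with signals of 35 and 44, 55 and 51, and 55 and 79, so that its weakest stood at the 33.1st and 35.0th percentile. Both genes had the highest CpG content of the members, as given below.

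For 4 S100a genes the region lay at an inner start or near the edge of the window. S100a3 was open at an inner start, at a region centred 26502.5 bp from the 5′ end of the gene, with signals of 109 and 106 at the 97.9th and 95.2nd percentile. This was the highest promoter region among the members in replicate 1. No region touched the 1 kb around its 5′ end. S100a4, a gene of motile and mesenchymal cells, had a region with signals of 72 and 86 centred 300.5 bp before its second start. S100a5 had one with 46 and 64 centred 489.5 bp before its second start. The S100a4 region met a hotspot with a -log10 q of 5.10 in replicate 1 and 5.05 in replicate 2, and the S100a5 region one with 1.61 and 2.35, where the other open members reached the maximum of 100 in both. The S100a7a region, with signals of 68 and 75, was centred 946.5 bp before the start, and that of Crct1 lay further out on the inner side. With a window of 250 bp, S100a5, S100a7a and Crct1 lost their open promoter. S100a3 and Crct1 lost it when the 5′ end of the gene was the only start.

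The 3 closed S100a genes differed in their surroundings. S100a2, which lies inside the S100a3 gene, had 4 shared regions in its locus, and all 4 also lay in that of S100a3. S100a8 and S100a9 encode the subunits of calprotectin, which is abundant in neutrophils. S100a8 had 1 shared region in its locus, 4567.5 bp before the start, with signals of 40 and 49. S100a9 had none, and single peaks of 16 in replicate 1 and 9 in replicate 2 did not overlap. Of 10 myeloid markers, Ptprc, Cd68 and Mpo had an open promoter, beside 66.4% of all protein-coding genes.

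**Figure D2:**
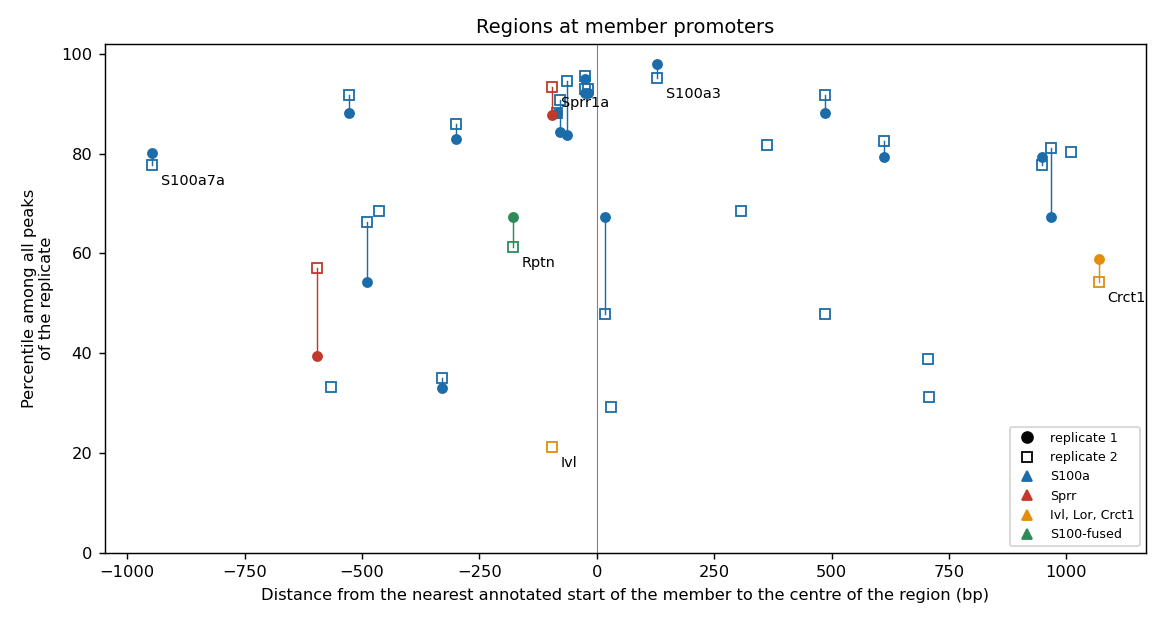
Regions at member promoters by the distance of their centre from the nearest annotated start (bp, horizontal axis) and the percentile of their signal among all peaks of the replicate (vertical axis), with filled circles for replicate 1, open squares for replicate 2 and a line joining shared regions. Sprr1a at 87.7 and 93.4 sits among the S100a genes, Rptn and Crct1 lie lower, and Ivl has 1 square at 21.2.

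Regions within the loci followed the same split. Of the 58 members 28 (48.3%) had at least 1 shared region in the locus, against 82% of all genes, and the median was 0 regions per member against 4 over all genes. Member loci were short, with a median of 21.7 kb against 37.4 kb. S100a genes had a median of 4.5 regions and 13 of 14 had at least 1. Of the other members 15 of 44 did. In replicate 1 alone 35 members had a peak in the locus, beside 84.3% of all genes, and in replicate 2 alone 33 did, beside 84.4%. The count of members depends on the flank: it was 12 with the gene body alone, beside 70.6% of all genes, and 49 with a 50 kb flank, beside 89.1%.

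The largest number was in the S100a6 locus, with 10 shared regions from 10 peaks in replicate 1 and 13 in replicate 2. S100a3 and S100a13 had 7 each, S100a1 had 6, and S100a4, S100a5, S100a10 and Tchh had 5 each. Lor, S100a2 and S100a11 had 4 each. These counts share regions, since 21 of the 57 distinct regions lay in more than 1 member locus. The S100a1 and S100a13 loci also take in the promoter of their neighbour Chtop, which is no member. Apart from 4 regions beyond its end, the S100a6 locus held its promoter region, 3 regions in its introns and the regions of S100a4 and S100a5. The intron region 1300.5 bp inside the gene had signals of 76 and 92 and holds a pair of AP-1 strings.

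**Figure D3:**
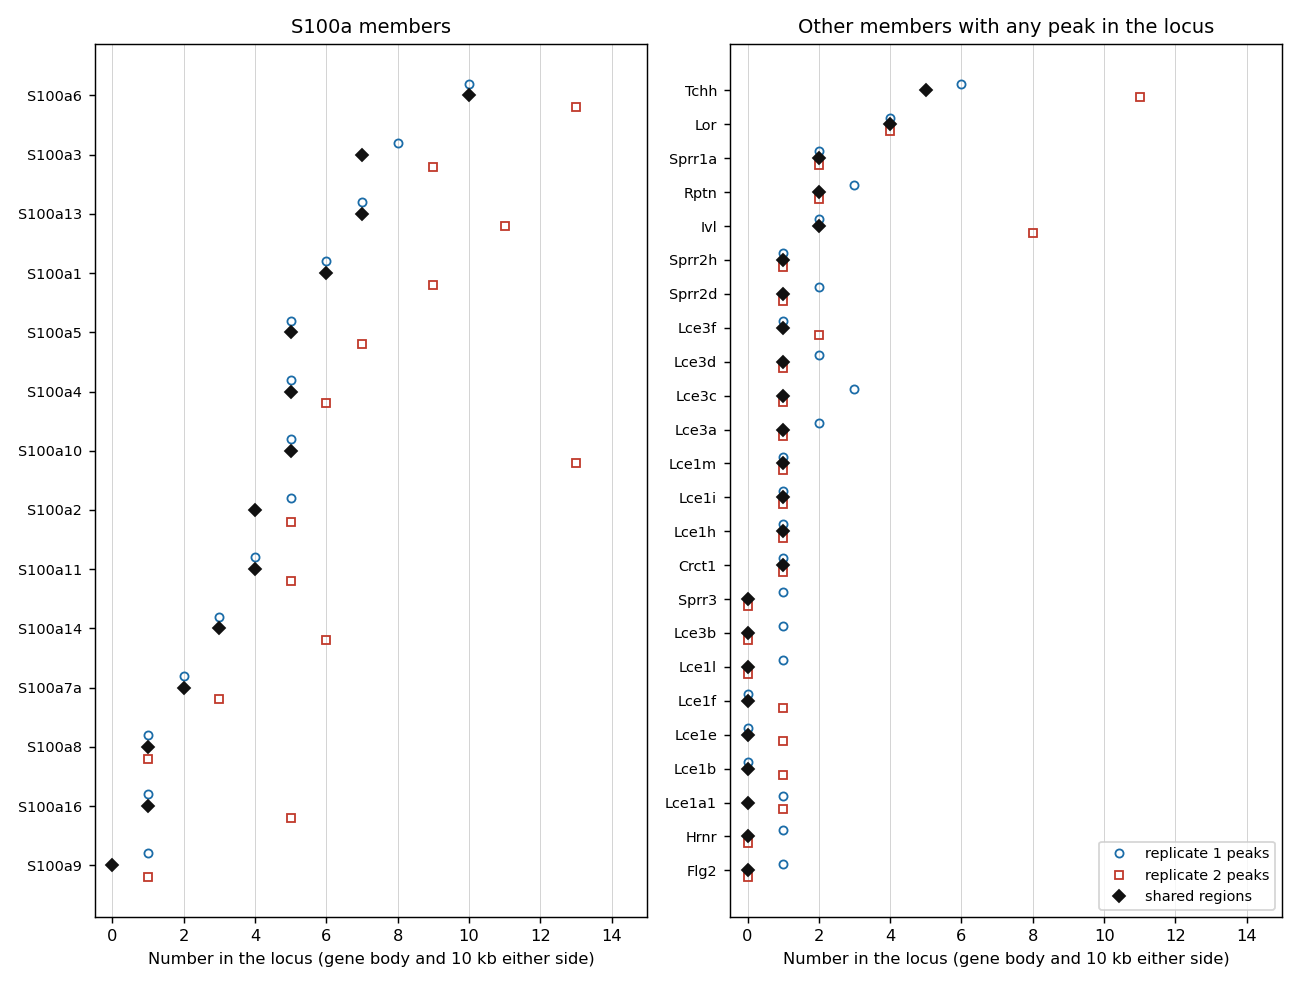
Number of peaks of replicate 1 (circles), of replicate 2 (squares) and of shared regions (diamonds) in the locus of each S100a member (left) and of each other member with any peak there (right). S100a6 leads with 10 shared regions, Tchh with 5 and Lor with 4 lead the other members, and replicate 2 has more peaks than replicate 1 in the loci of Tchh, Ivl and S100a10.

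The replicates differed more in some loci than in others. In the loci of S100a genes, 36 of 37 peaks of replicate 1 had a partner in replicate 2, and 36 of 58 peaks of replicate 2 had one in replicate 1. In the loci of the other members the counts were 23 of 32 and 22 of 37. Over the genome 77.6% of the peaks of replicate 1 and 70.7% of those of replicate 2 were shared. Tchh had 6 peaks in replicate 1 and 11 in replicate 2, Ivl had 2 and 8, and S100a10 had 5 and 13. The unshared peaks of Ivl had signals from 35 to 51 and those of S100a10 from 31 to 51, below the median of replicate 2, which was 52. Some unshared peaks of replicate 2 in other S100a loci were stronger, with 80 at S100a11 and 78 in the S100a6 locus.

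The regions were unevenly spread along the clusters. From S100a1 to S100a9 there were 11.9 shared regions per 100 kb, and from S100a11 to S100a10 there were 15.9, against 3.87 over the genome. The stretch from Sprr2a1 to Sprr4 had 1.41 and that from Lce6a to Lce1m had 2.26. From Flg2 to Hrnr there was none, with 2 peaks in each replicate that did not overlap. Between the clusters there was 0.289 per 100 kb.

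Of the stretches without a shared region, 4 were longer than 100 kb and held members. The longest, of 229 kb, held Flg2, Flg and Hrnr. Flg encodes filaggrin, and it had no peak in its locus in either replicate. One of 169 kb held 10 Lce genes from Lce6a to Lce1h, one of 166 kb held Sprr2a1, Sprr2a2, Sprr2a3 and Sprr2b, and one of 131 kb held Lce1i, Lce1j, Lce1k and Lce1l. Such stretches are common in the mouse genome, of which 31.9% lies in stretches of at least the longest length and 41.4% in stretches of at least the shortest. Of the 41 members other than S100a without an open promoter, 20 had no peak in the locus in either replicate, among them Sprr2a1, Lce1k and Flg.

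**Figure D4:**
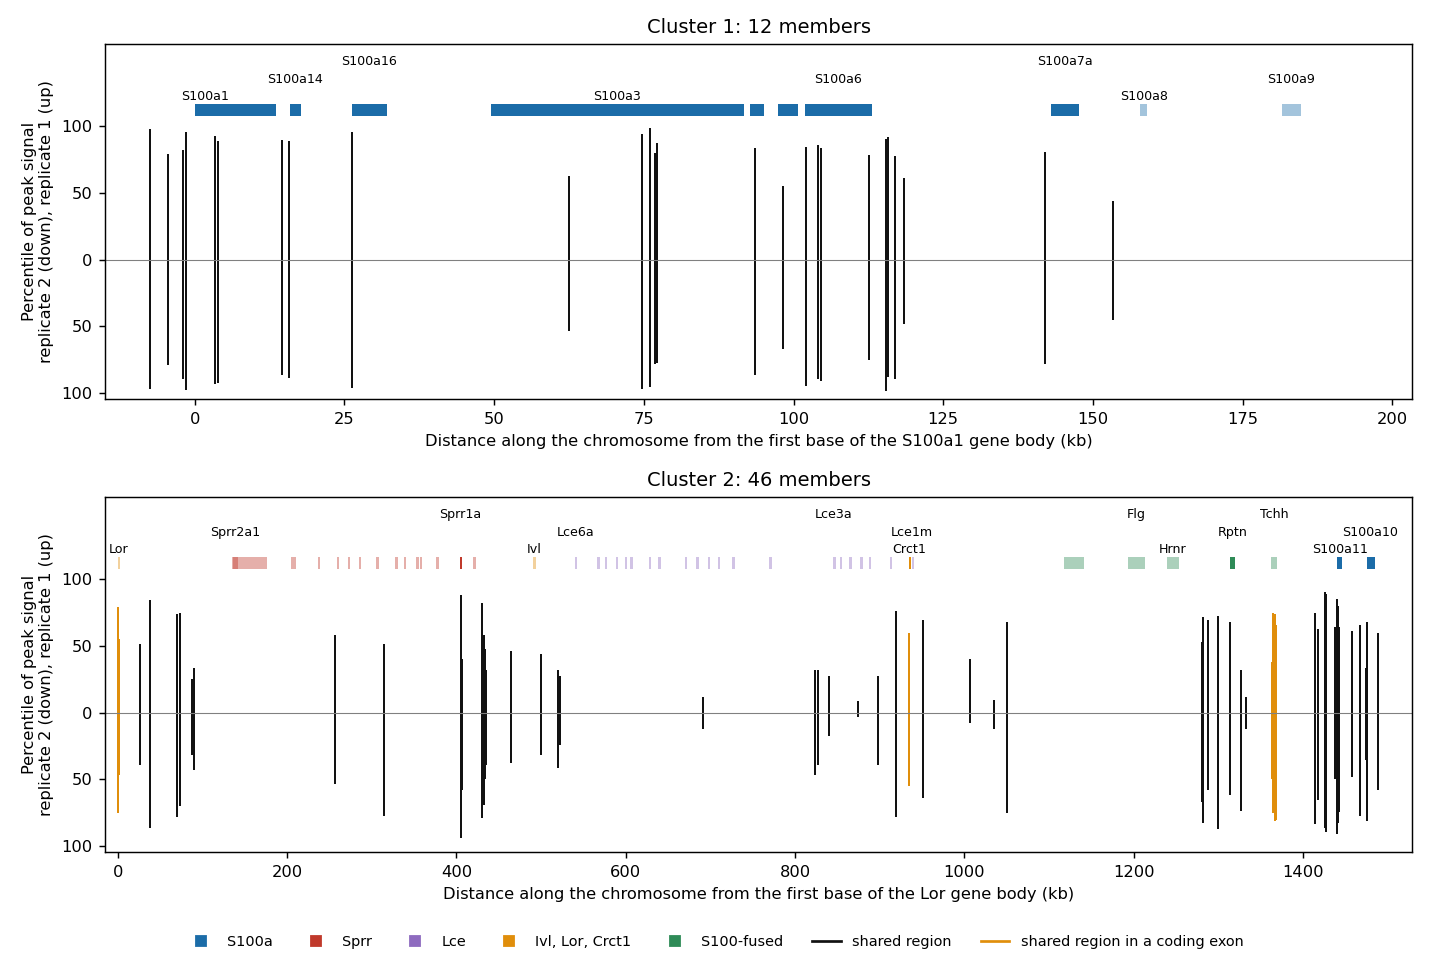
The 2 clusters with each shared region as a line whose height is the percentile of its signal in replicate 1 (up) and replicate 2 (down), by distance in kb along the chromosome; boxes are genes, in full colour where the promoter is open and pale where it is not. Lines are dense over the S100a genes and sparse over the Sprr, Lce and Flg genes, and the regions of Lor, Tchh and Crct1 (orange lines) lie in coding exons.

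Some regions stood between the members, outside their loci. Upstream of Sprr4 there was a group of 4 between 10477.5 and 15247.5 bp from its start, of which the strongest had signals of 70 and 76. Upstream of Rptn, 4 regions lay in introns of the noncoding gene Gm37245 between 13468.5 and 33438.5 bp from the Rptn start, with signals of up to 59 and 88. Upstream of S100a11 a group of 5 lay between 13377.5 and 26297.5 bp, and the strongest in replicate 1, shown above with a pair of AP-1 strings, had signals of 84 and 86. Within the Ivl locus, 2 regions lay 5965.5 and 6675.5 bp before the start, with signals of 35 and 41, and 40 and 42. They stood below the median of both lists, which was 44 and 52. Which gene, if any, these regions act on was not measured.

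Lor, Tchh and Crct1 had their regions in coding sequence. Lor, which encodes loricrin, the main component of the envelope in epidermis, had 4 shared regions and all 4 were in its coding exon, centred 1351.5 to 2511.5 bp inside the gene. Their signals were 66 and 68, 60 and 72, 36 and 48, and 46 and 50. Tchh encodes trichohyalin, a structural protein of hair root sheath and tongue papillae. All 5 of its shared regions were in its coding exon, with signals from 37 to 61 in replicate 1 and from 52 to 79 in replicate 2. Neither gene had a peak within 1 kb of its start in either replicate.

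With Crct1, 10 of the 22 regions found only in loci of members other than S100a lay in coding exons (45.5%), and 0 of the 35 in S100a loci did, counting region centres in coding exons beyond 1 kb from any start. Within 1 kb of a start, 1 promoter region of S100a13 also lay in coding sequence. Over all shared regions the share, counted the same way, was 0.975%, and in keratin loci it was 9 of 120 (7.5%). Since 9 of the 10 lay in 2 genes, they are not separate observations of a family. The GC content was 70.0 to 76.0% in the Lor regions and 55.9 to 63.2% in the Tchh regions. The median was 51.2% over all shared regions and 57.1% over those in coding exons. It was 62% over those in coding exons within keratin loci. The Lor regions lay above these medians, and the range of the Tchh regions took in both coding exon medians. The coding sequence of Lor had a GC content of 72.9%, the highest of the 58 members, and that of Crct1, with 67.6%, the second highest, while Tchh had 60.1%. Another 23 members had a higher coding GC content than Tchh and no shared region there, of which 20 were Lce genes. Most of these were much shorter targets. The Lce genes had at most 546 coding bases (Lce1m), against 1458 in Lor and 4797 in Tchh, while Flg, also among the 23, had 6681. Each 32-base word in the Lor and Tchh regions occurs once in the genome. The part of base composition in these peaks was not tested, and no control library of cut naked DNA was used here.

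The promoters of the complex differed in sequence from those of most genes. The string TATAAA stood 45 to 15 bases before a start in 21 of 58 members (36.2%), against 4.89% of all genes. It was found in 11 of 15 Sprr genes, 3 of 21 Lce genes, all of Ivl, Lor and Crct1, 3 of 5 genes for S100-fused proteins and 1 of 14 S100a genes. Of the 21 members with it 4 were open, against 552 of the 1072 genes with it overall. The ratio of observed to expected CpG within 500 bp of the 5′ end of the gene had a median of 0.121 in members and 0.552 in all genes. It was highest in S100a11 at 0.542 and S100a10 at 0.519, and it was 0.0458 in Sprr1a. Open members had a median of 0.198 and the others of 0.110, where over all genes the open had 0.697 and the others 0.180. The median of open members was thus nearer to that of genes without an open promoter.

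Promoters poor in CpG were less often open throughout the genome. With a ratio of at most 0.25, 22% of 6262 genes had an open promoter, against 84.2% of 15649 genes above it. In the same low range 6 of 9 S100a genes and 3 of 44 other members (6.82%) were open, and all 5 members above it were open S100a genes. Within this range the ratio ran from 0.0679 (S100a7a) to 0.214 (S100a3) in S100a genes. In the other members it ran from 0 to 0.219, with a median of 0.106. The families were not matched for CpG, and its part in their difference was not tested.

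**Figure D5:**
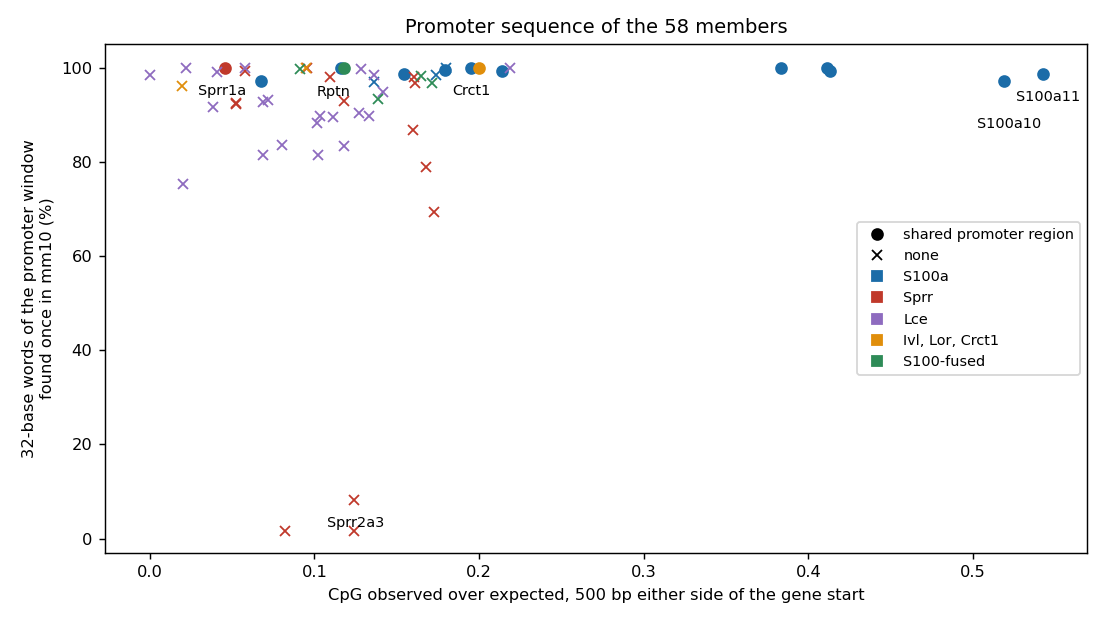
CpG observed over expected within 500 bp of the 5′ end of the gene (horizontal axis) for the 58 members. The vertical axis is the share of 32-base words within 1 kb of that end that occur once in mm10 (percent). Circles mark promoters open at any start and crosses mark the others. Sprr1a, Rptn and Crct1 lie at 100, 99.8 and 100% on the vertical axis, and Sprr2a1, Sprr2a2 and Sprr2a3 lie below 10.

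Repeated sequence touches part of the count. In nearly identical copies a short read cannot be placed, and such sites can be missing from a peak list. The share of 32-base words found once in mm10 was taken within 1 kb of the 5′ end of each gene. It was 1.62% in Sprr2a1 and Sprr2a2, whose 5′ ends are 121 bp apart, so these are largely the same window. In Sprr2a3 it was 8.17%. The second starts of Sprr2a2 (chr3:92250747) and Sprr2a3 (chr3:92288566) were not measured. It was below 90% in 15 members, 6 Sprr and 9 Lce genes, and below 90% in 19.3% of all genes. Among the compared families it was below 90% in 57.9% of keratin-associated genes and 24.5% of keratins, so the same limit holds for their counts. For Sprr2a1, Sprr2a2 and Sprr2a3 the lack of a peak at the 5′ end cannot be told apart from reads that were not placed. The rest of the 15 had from 69.2% (Sprr3) to 89.7% (Lce1j) single-copy words, so a peak could be missed in the repeated part of the window. The other 26 closed members outside the S100a family had at least 90% single-copy words, among them Sprr1b with 98.0%, Lor with 100%, Flg with 99.7% and Lce1k with 98.3%. The read length was not found in the labels or files.

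Motif strings were searched on both strands of the 57 distinct regions. KLF strings were in 16 (28.1%, against 11.2% of all shared regions) and AP-1 strings in 11 (19.3% against 13.1%). By locus, KLF strings were in 13 of 35 regions of S100a loci and 3 of 22 others, and AP-1 strings in 9 of 35 and 2 of 22. C/EBP strings were in 9 (15.8% against 28.5%) and ETS strings in 8 (14% against 16.9%). RUNX strings, spelled TGTGGT, were also in 8 (14% against 12%). TEAD strings, spelled GGAATG, were in 6 (10.5% against 10.6%) and GC boxes in 6 (10.5% against 17.6%). The string AGATAA of GATA factors was in 4 (7.02% against 10.1%). The CTCF consensus was in 3 (5.26% against 7.68%) and the p63 consensus in 2 (3.51% against 5.82%). The GRHL string AACCGGTT was in 1 (1.75% against 0.208%). The FOXA string TGTTTAC was in 0, against 4.77% of all. KLF and RUNX strings can share bases. These are matches of letters in few regions, given without a test.

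In the promoters, AP-1 strings and TATAAA were also present where there was no peak. RefSeq promoter sequences matched 52 of the 58 members by symbol. AP-1 strings were in the 250 bases before a RefSeq start of 16 of them (30.8%), against 7.82% of 27025 gene symbols with RefSeq promoters. By family this was 9 of 14 Sprr genes and 0 of 20 Lce genes. A symbol was counted when any of its promoters held the string. Both AP-1 and TATAAA, the latter 45 to 15 bases before the start, were in 12 members, against 0.355% of all symbols. These were Ivl, Lor, Rptn, Sprr1a, Sprr1b and 7 Sprr2 genes. For a symbol with several promoters, AP-1 and TATAAA could lie in different ones. The proximal shared region of Sprr1a held both strings and that of Rptn held neither, and these 2 of the 12 were open. Of the 10 that were not, 8 had at least 90% single-copy words in the promoter window. As the printed sequences show, Sprr1b, Sprr2h, Lor and Ivl carry a single AP-1 string and TATAAA, where Sprr1a carries a pair of AP-1 strings and TATAAA. The Sprr1a sequence is a region of 150 bases, and the others are the 250 bases before the start. In the rest of the closed promoters AP-1 strings were not counted, so whether any of them carries a pair is not known. KLF strings were in promoters of 2 of the 52 members (3.85%, against 17.9% of all symbols), S100a16, which was open, and Ivl, which had a peak in replicate 2 alone.

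Other genes of the barrier were compared with the members. Of 36 genes 23 had an open promoter, a share near the 66.4% of all protein-coding genes. Of the 13 regulators 12 did, among them Klf4 with 6 promoter regions and Ovol1 with 5, and Trp63, which encodes the squamous master regulator p63, did not but had 5 shared regions in its locus. Lipid barrier genes followed with 4 of 5 (Cers3, Elovl4, Aloxe3 and Alox12b, but not Abca12). Crosslinking and envelope genes had 4 of 8, with the crosslinking enzyme gene Tgm1 and the plakin genes Evpl and Ppl open and the terminal transglutaminase gene Tgm3 closed. Of the junction genes 2 of 5 were open (Pkp1 and Dsp), and of the proteases and inhibitors 1 of 5 (St14). The late genes Casp14, Klk7 and Dsg1a had no shared region in their loci. Dsg1a and Csta1 belong to families of close copies, so their calls are uncertain. The 13 protein-coding genes between the members that are no members themselves, such as Crnn, Kprp and Smcp, had no promoter peak in either replicate.

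The labelled tissue was checked against markers. All 10 glandular stomach markers, among them Tff1, Gkn1 and Atp4b, had an open promoter, as did 5 of 6 smooth muscle markers (not Acta2). The share over all protein-coding genes, to be held beside each of these counts, was 66.4%. Of 10 markers of stratified squamous epithelium 4 were open (Krt5, Krt14, Pkp1 and Sfn) and Krt4, Krt13, Krt15, Krt6a, Trp63 and Dsg3 were not. Of 8 markers of keratinised epidermis Krt1 and Krt10 were open. The share of squamous cells in each library was not measured, and its part in the closed Sprr, Lce and Flg promoters was not tested.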

How the data were processed

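Peaks and hotspots were used as the authors deposited them, on mm10 and, per the deposited file lists, called from each replicate's own alignments. Caller, aligner and thresholds: not given in the sources used here. Peak signal, as deposited, is a whole number with no stated scale, so values are compared as percentiles within a replicate. For hotspots the deposited value, by the file layout, is -log10 q, up to 100. Overlapping peaks of the replicates (1 bp or more) made up 105606 shared regions, with an overlap routine tested on simulated data against bedtools 2.31.1. Genes were those of GENCODE M21 on the 19 autosomes, X and Y. The centre of a region decided its category, in the order promoter, coding exon, other exon, intron, intergenic. Shares of single-copy 32-base words, CpG and strings were computed in Python 3.11.15 with numba 0.67.0 from the RefSeq GRCm38.p6 sequence. Members, gene lists and motifs were chosen with earlier results of these data known, and the CpG limit of 0.25 after seeing the data. Named genes were every member with a promoter peak, the members with the most regions, examples without a peak from each family, and genes of the lists. With 1 group, no test was made. Alternatives were another promoter window, start, flank, peak threshold and overlap, hotspots, and each replicate alone.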

Additional observations from a re-analysis of the deposited data

How the results depend on the processing

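The count of open promoters was stable over the alternatives tried. It ranged from 11 (window of 250 bp) to 17 (2.5 kb) of 58 members, beside 62.6 and 70.0% of all genes, and the S100a genes from 9 to 12 of 14. The other members had 2 to 4 of 44 except with the 2.5 kb window, where Lor and Tchh joined through their coding exon regions and the count was 5. Each replicate alone gave 13 and 15 open members, 11 S100a genes both times, and 2 and 4 others. Members with a region in the locus numbered 12 with the gene body alone and 49 with a 50 kb flank, beside 70.6 and 89.1% of all genes. The median per locus was 4 with the 50 kb flank, beside 10 over all genes, and 1 in either replicate alone. No paired analysis was possible because there was 1 group of samples. The unknown depth limits weak sites, and both libraries carry 1 donor identifier.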
